A study of Mus musculus with 6 samples.

Results

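The genes described are 8 noncoding host genes of small nucleolar RNAs (snoRNAs): Gas5, Snhg1, Snhg3, Snhg5, Snhg6, Snhg8, Snhg12 and Snhg15. They were chosen by name as host transcripts, with earlier results of these data known. All 8 were found among the 16095 genes of the deposited table. A host gene is transcribed and spliced like a messenger RNA, but its product is the snoRNA, which is trimmed out of an intron after splicing. Box C/D snoRNAs guide methylation of ribosomal and other RNAs, and box H/ACA snoRNAs guide pseudouridylation or processing of the ribosomal RNA precursor. The spliced exons that remain are not known to code for a conserved protein, and several of them are degraded by nonsense-mediated decay as soon as ribosomes read them, so the level of host RNA depends on transcription and on translation. Many hosts begin with a pyrimidine-rich 5′ terminal oligopyrimidine (TOP) start, a feature shared with ribosomal protein genes. Gas5 is named for its accumulation in growth-arrested cells, and its RNA can bind the glucocorticoid receptor.

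RNA was sequenced from kidney epithelial cells of 3 Terf1_flox libraries, in which both Trf1 copies were lox alleles, and of 3 control libraries (Trf1+/+). Trf1, encoded by Terf1, is a shelterin protein that binds telomere repeats. All 6 libraries came from mice that carried KspCadherin-CreERT2, a Cre recombinase that tamoxifen switches on and that is made under the promoter of Ksp-cadherin (Cdh16), and the fluorescent reporter KFP. Males and females were 6 to 8 weeks old when tamoxifen began, and it was injected 3 times a week for 8 weeks in both groups. Kidneys were dissociated with enzymes, and cells were sorted on EpCAM and the KFP signal, so deletion was limited to cells in which the Ksp-cadherin promoter had been active. The sources used here do not say whether a library is 1 mouse or a pool, or its sex. The p-values therefore measure the spread between libraries, which may in part be technical.

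Values below are normalized counts, reads scaled by library, with 1 read worth between 0.789 and 1.09 normalized counts. Libraries held 13870931 to 15375471 reads in Terf1_flox and 13582140 to 17680986 in control. Terf1 had 62.0, 24.6 and 25.3 normalized counts in Terf1_flox libraries, against 529.6, 486 and 664 in control libraries, a 15.9-fold lower level. On the log2 scale the difference was -3.99 ± 0.61 (SE), with an adjusted p of 0.0814 in limma and 5.42e-08 in DESeq2, and an exact two-sided permutation p of 0.1, the smallest that 3 libraries against 3 allow. All 7 markers of the thick ascending limb were detected, at a summed level of 181282 to 199585 in Terf1_flox and 225331 to 278544 in control. Of the 7, 4 had a log2 fold change above 0 and 3 below it (median 0.04). Without overlap between the groups, 1 was higher (14.3%, background 10.3%) and 3 lower (42.9%, background 10.8%). DESeq2 called 0 higher and 3 lower (42.9%, background 3.34%), and limma called 0. Epcam, the gene of the sorting antibody's target, had 1831, 1434 and 2977 in Terf1_flox and 4510.2, 5087 and 4416 in control libraries. All 7 intercalated cell markers were tested and lay below 0 (median -1.63). Their summed level was 6011 to 11801 in Terf1_flox and 8866 to 20613 in control. Of these, 1 was lower without overlap (14.3%, background 10.8%), and DESeq2 called 1 lower (14.3%, background 3.34%). Of 6 distal convoluted and connecting tubule markers 4 lay above 0 (median 0.07), and of 5 tested principal cell markers 1 did (median -1.01). The 1 T and NK cell marker in the table, of 10, had 0 to 688 in Terf1_flox and 174 to 213 in control. No endothelial marker of 8 and no podocyte marker of 5 was in the table, while 5 of 7 erythroid (summed 151 to 610.2 in Terf1_flox and 441 to 833 in control), 5 of 12 macrophage (142 to 294 in Terf1_flox and 138 to 287 in control) and 3 of 7 B cell markers (24.6 to 136 in Terf1_flox and 4.74 to 17.2 in control) were. Their part in the host gene levels was not tested. One Terf1_flox library, replicate 3, had 1.01 normalized counts of the Y-linked Eif2s3y, where the other two had 1777 and 1538 and the control libraries 394, 512 and 478. The X-linked Xist, made from an inactive X chromosome, had 1577 to 2700.0 normalized counts in Terf1_flox and 1379.8 to 2872 in control libraries, so it was found in all 6.

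The hosts differ in how many snoRNAs they carry. In GENCODE release 21 for mouse (GRCm38) the 8 genes span 28 loci of the gene type snoRNA, from 9 in Gas5 (1 of them named Mir5117) and 8 in Snhg1 to 1 each in Snhg6, Snhg8 and Snhg15. Gas5 lies at chr1:161034422-161038539 on the plus strand, Snhg1 at chr19:8723475-8726443 (plus), Snhg3 at chr4:132348014-132353686 (minus) and Snhg5 at chr9:88521050-88522929 (minus). Snhg6 lies at chr1:9941959-9944118 (minus), Snhg8 at chr3:123507552-123508404 (minus), Snhg12 at chr4:132308623-132311024 (plus) and Snhg15 at chr11:6525591-6528760 (minus). The snoRNAs below are shown because they are the products of the 4 hosts whose levels separated the groups. Snord80 (chr1:161037601-161037681, plus strand) and Snord47 (chr1:161038082-161038158, plus strand) lie in Gas5, Snord50a (chr9:88521529-88521600, minus strand) and Snord50b (chr9:88521797-88521868, minus strand) in Snhg5, Snora24 (chr3:123507937-123508066, minus strand) in Snhg8 and Snora73a (chr4:132352775-132352979, minus strand) in Snhg3. Sequences are from GENCODE, 5′ to 3′ as DNA letters, and capitals mark the box C match TGATGA and the box D match CTGA in the C/D guides and the ACA in the H/ACA guides.
Snord80: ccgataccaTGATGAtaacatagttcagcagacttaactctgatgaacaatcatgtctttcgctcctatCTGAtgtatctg
Snord47: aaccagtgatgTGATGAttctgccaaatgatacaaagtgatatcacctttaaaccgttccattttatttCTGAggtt
Snord50a: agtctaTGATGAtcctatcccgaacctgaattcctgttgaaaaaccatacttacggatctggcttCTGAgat
Snord50b: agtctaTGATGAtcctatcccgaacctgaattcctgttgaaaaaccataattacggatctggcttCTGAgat
Snora24: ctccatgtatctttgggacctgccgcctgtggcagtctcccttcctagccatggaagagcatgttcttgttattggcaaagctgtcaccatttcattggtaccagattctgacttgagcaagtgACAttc
Snora73a: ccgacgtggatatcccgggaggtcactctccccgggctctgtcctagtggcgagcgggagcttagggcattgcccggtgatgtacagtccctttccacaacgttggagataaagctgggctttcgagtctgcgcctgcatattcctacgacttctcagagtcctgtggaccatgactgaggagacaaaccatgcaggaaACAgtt
Snord50a and Snord50b differed at 1 of 72 positions, and Snora73a and its neighbour Snora73b at 7 of 205, so each of these hosts carries 2 near-identical guides. These are short RNAs without a poly(A) tail, and the values that follow are counts of the host genes. In GENCODE, 20 of the 25 transcripts of Gas5 retain an intron, as do 14 of 18 of Snhg1. So do 3 of 6 of Snhg5 and 1 of 3 of Snhg8, but 0 of Snhg3, Snhg6, Snhg12 and Snhg15. Whether reads of the snoRNAs themselves were counted under their hosts was not tested.

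Host genes of box C/D snoRNAs come first. Gas5 had 7367, 5774 and 5975 normalized counts in Terf1_flox libraries, against 3558, 2729.8 and 2653 in control libraries. Every Terf1_flox library lay above every control library, with means of 6372 ± 868 in Terf1_flox and 2980.4 ± 502 in control (SD, n = 3 each), a 2.14-fold higher level. The log2 fold change was 1.10 ± 0.21 (SE; 95% interval 0.62 to 1.59). In limma the unadjusted p was 0.000675 and the Benjamini-Hochberg adjusted p over all 14822 genes tested was 0.0991, above the threshold of 0.05; edgeR gave an adjusted p of 0.119. With DESeq2 Gas5 passed at an adjusted p of 0.000563, and with limma on genes of a mean of at least 50 at 0.0428. The exact two-sided permutation p was 0.1, the smallest possible. In bulk RNA, fewer cells of a type and less RNA per cell cannot be told apart, and summed proximal tubule markers, of which 7 of 9 reached a mean of 10, were 4590 to 14382 in Terf1_flox and 1638 to 4014 in control libraries; their part in the host gene levels was not tested.

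Snhg5, host of the Snord50 pair, had 305, 280.2 and 142 normalized counts in Terf1_flox libraries, against 88.8, 124 and 109 in control libraries. The groups did not overlap, but Terf1_flox replicate 3 lay close to the highest control. The difference was 1.10 ± 0.57 on the log2 scale (95% interval -0.19 to 2.40; adjusted p = 0.422 in limma and 0.35 in DESeq2). It ranged from 0.90 to 1.45 when each library was left out in turn, the highest being without Terf1_flox replicate 3.

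Snhg6, host of Snord87, had 624, 326 and 518 normalized counts in Terf1_flox libraries, against 311, 263 and 410.5 in control libraries. The groups overlapped, since Terf1_flox replicate 2 was below the highest control. Its log2 fold change of 0.55 ± 0.43 (95% interval -0.42 to 1.52) did not pass (limma adjusted p = 0.609), and the interval spans 0.

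Snhg1 was the most uneven of the 8. It had 468, 9.24 and 338 normalized counts in Terf1_flox libraries, against 172, 141 and 215 in control libraries. Replicates 1 and 3 of Terf1_flox lay above all controls, while replicate 2 held 9 reads and lay far below them. The log2 fold change of -0.57 ± 1.32 (95% interval -3.57 to 2.43; limma adjusted p = 0.88) therefore rested on 1 library. Without Terf1_flox replicate 2 it was 1.19 (limma adjusted p = 0.389), and without replicate 1 it was -1.57. By group mean Snhg1 was higher in Terf1_flox (272 ± 236) than in control (176 ± 37.0; SD, n = 3 each), and on recovered reads edgeR gave 0.66 and DESeq2 0.65, both above 0.

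Among host genes of box H/ACA snoRNAs, Snhg3 carries both copies of Snora73, the guide known as U17 that acts in cleavage of the ribosomal RNA precursor. It had 492, 592 and 415 normalized counts in Terf1_flox libraries, against 213, 160.1 and 192 in control libraries. The groups were well apart, with means of 499.6 ± 88.9 in Terf1_flox and 188 ± 26.6 in control, a 2.63-fold higher level. Its log2 fold change of 1.40 ± 0.42 (95% interval 0.45 to 2.34) was the highest of the 8; the limma adjusted p was 0.202, the edgeR adjusted p 0.218 and the DESeq2 adjusted p 0.0452. In GENCODE, Snhg3 overlaps Rcc1 on the same strand over 5592 bases and the noncoding Gm17300 on the opposite strand over 1611 bases. The sources used here do not say how the authors' counting assigned reads shared by overlapping genes or whether it used strand, so the count of Snhg3 is uncertain. Rcc1 itself had 62.0, 2.05 and 62.7 normalized counts in Terf1_flox and 0, 92.5 and 1.58 in control libraries, groups that overlapped.

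Snhg8, host of Snora24, had 823, 752 and 713 normalized counts in Terf1_flox libraries, against 340.4, 481 and 463 in control libraries. The groups did not overlap and the Terf1_flox libraries lay close together, with means of 763 ± 55.8 in Terf1_flox and 428 ± 76.5 in control, a 1.80-fold higher level. This is 0.85 ± 0.34 on the log2 scale (95% interval 0.08 to 1.62; adjusted p = 0.312 in limma and 0.193 in DESeq2).

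Snhg15, host of Snora9, had 103, 62.6 and 146 normalized counts in Terf1_flox libraries, against 142, 94.4 and 109.7 in control libraries. Each group spanned much of the other's range, and the log2 fold change was -0.21 ± 0.64 (95% interval -1.68 to 1.26; limma adjusted p = 0.915). Without Terf1_flox replicate 2 it was 0.11. Snhg12, which carries 3 H/ACA guides (Snora16a, Snora44 and Snora61) and the C/D guide Snord99, had 42.4, 266 and 166 in Terf1_flox libraries, against 79.2, 168 and 90.0 in control libraries. The Terf1_flox libraries enclosed the controls, with a log2 fold change of 0.22 ± 0.81 (95% interval -1.63 to 2.07; limma adjusted p = 0.932). It was -0.33 without Terf1_flox replicate 2 and 0.98 without Terf1_flox replicate 1.

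**Figure D1:**
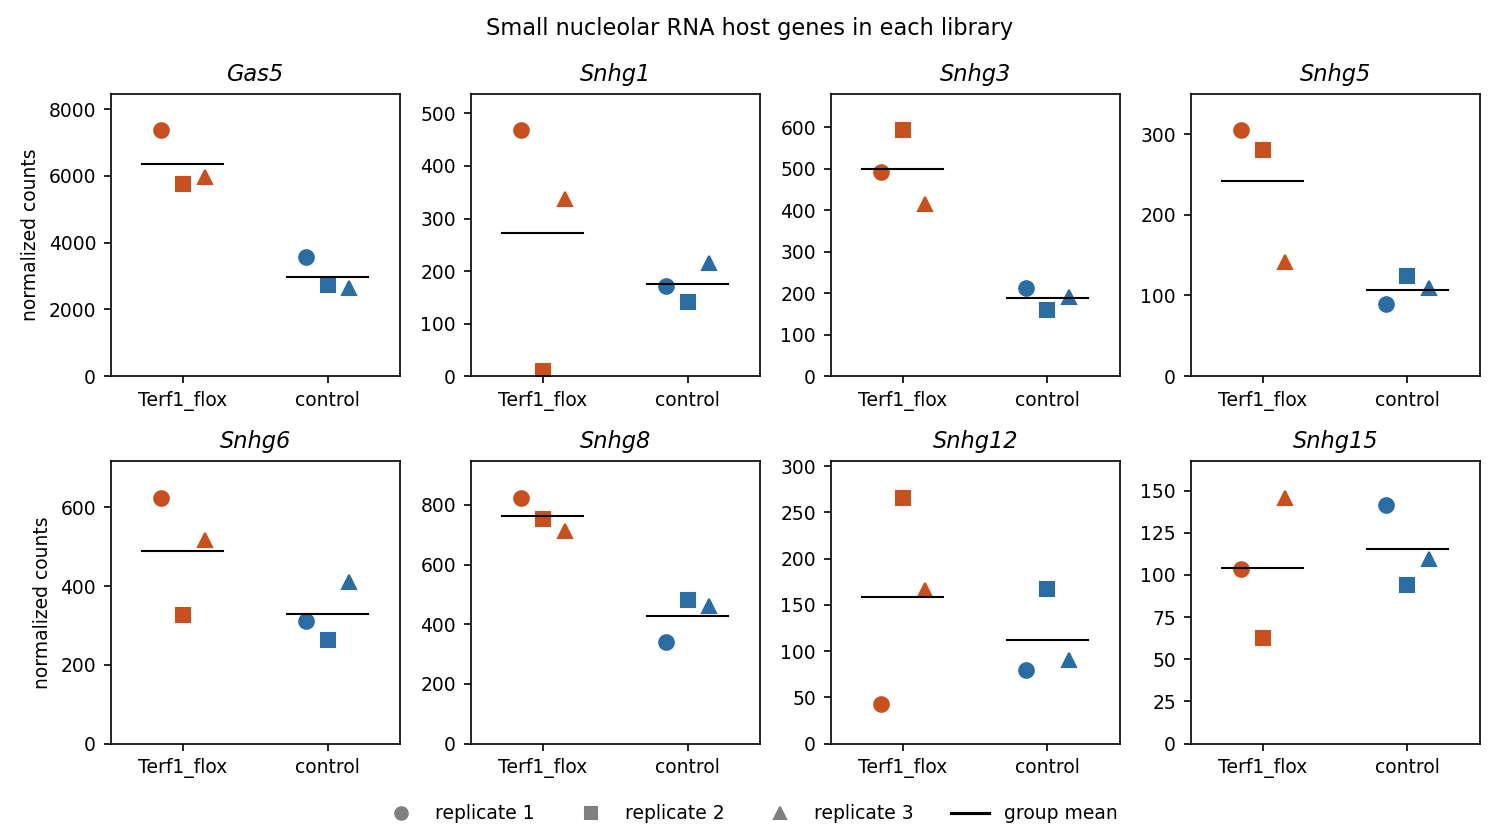
Normalized counts (y axis, linear from 0) of the 8 host genes in each Terf1_flox and control library, with symbols for replicate numbers and a line at each group mean. Gas5, Snhg3, Snhg5 and Snhg8 show 3 Terf1_flox libraries above 3 control libraries, and Snhg1 shows 1 Terf1_flox library near 0.

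Per kilobase of median annotated transcript, Gas5 was the most abundant host in both groups, at 10130.4 ± 1379.7 normalized counts per kb in Terf1_flox and 4738 ± 798 in control libraries. The next, Snhg8, was at 1445 ± 106 per kb in Terf1_flox and 811 ± 145 in control, far below the lowest Gas5 library of either group (9179 per kb in Terf1_flox and 4218 in control). Below Gas5 the order in Terf1_flox was Snhg8, Snhg3 (1143 ± 203), Snhg6 (876 ± 270.2), Snhg1 (451 ± 392), Snhg5 (291 ± 106), Snhg15 (174.0 ± 69.6) and Snhg12 (173 ± 122), and each of these neighbours overlapped the next in range. In control it was Snhg8, Snhg6 (587 ± 134), Snhg3 (431 ± 60.8), Snhg1 (292 ± 61.3), Snhg15 (193 ± 40.4), Snhg5 (129 ± 21.1) and Snhg12 (123 ± 52.8). In that order Snhg3 and Snhg1 did not overlap, nor did Snhg15 and Snhg5, while the other neighbours below Gas5 did. Snhg3 stood above Snhg6 in Terf1_flox and below it in control by group mean, with overlapping ranges in both groups.

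Over the 8 host genes together, 4 were higher in Terf1_flox without overlap between the groups (50%), against 10.3% of all genes tested. None was lower without overlap, against a background of 10.8%. The 8 genes and all lists were chosen with earlier results of these data known. The shares given here and for the other lists are therefore descriptions, not tests. At an unadjusted limma p below 0.05, 3 were higher (Gas5, Snhg3 and Snhg8; 37.5%), against 5.7% of all genes, and 0 were lower, against 8.43%. At an adjusted p below 0.05 limma called 0 of the 8 and 0% of all genes, with 2095 genes at an unadjusted p below 0.05; edgeR called 0 as well, with 1993 unadjusted. DESeq2 called 2 of the 8 higher, Gas5 and Snhg3, against 2.47% of the genes it tested, and 0 lower, against 3.34% (5.81% in either direction). In sign, 6 of 8 were above 0, against 47.2% of all genes, and the median log2 fold change was 0.70 (0.69 without Terf1_flox replicate 3, the library low in Eif2s3y), against -0.08 for all genes.

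How the deposited counts are scaled moved all genes. The median of all genes was -0.24 with equal library totals, 0.04 with equal upper quartiles and 0.06 after quantile normalization, and the medians of the 8 hosts were 0.52, 0.82 and 0.83 in the same settings. Of the genes at an unadjusted p below 0.05, 40.3% were higher in Terf1_flox in the deposited scaling, 25.4% once totals were made equal and 50.4% for equal upper quartiles. Gas5, Snhg3, Snhg5 and Snhg8 were above 0 in all 23 alternatives run. Their groups do not overlap, so leaving a library out could not change their sign. A replicate block leaves each fold change as it is, so these alternatives do not test the sign. Mitochondrially encoded genes held between 16.2% and 20.6% of reads in Terf1_flox and between 10.3% and 13.04% in control libraries; with equal totals outside those genes the host median was 0.63.

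**Figure D2:**
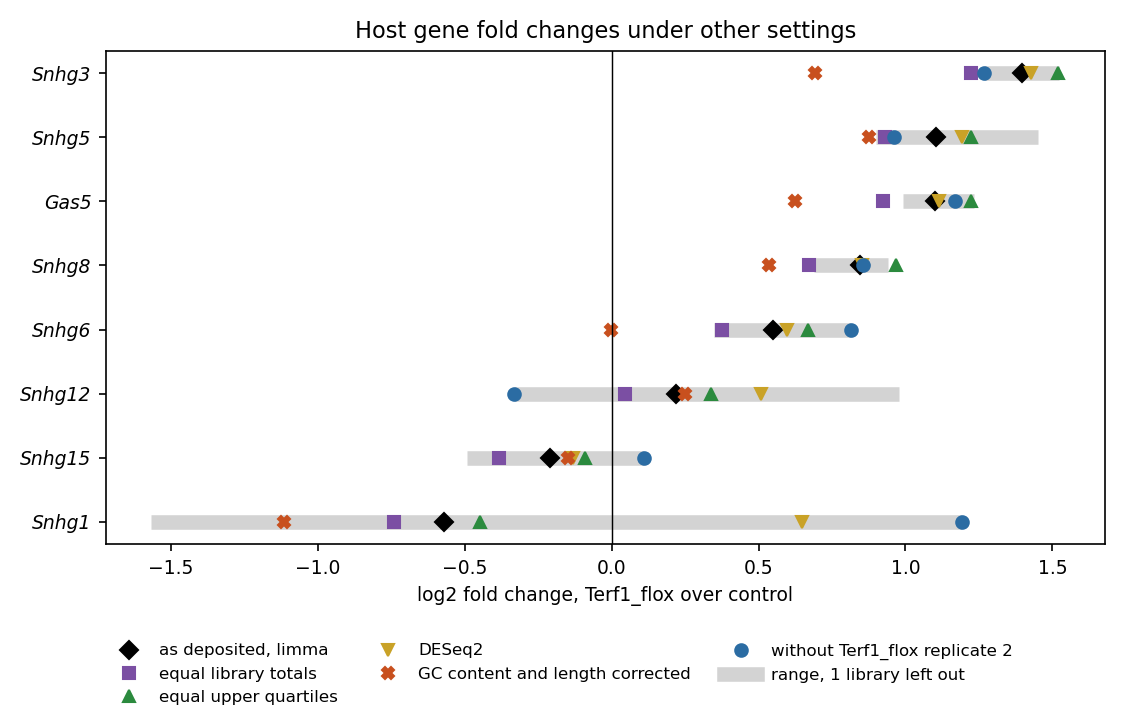
Log2 fold change, Terf1_flox over control (x axis), of each host gene under 6 settings (symbols), with a grey bar for the range when 1 library is left out. The upper 4 genes stay above 0 in every setting shown, while Snhg1, Snhg12 and Snhg15 cross 0 when Terf1_flox replicate 2 is left out. For the upper 4 the groups do not overlap, so leaving a library out could not change their sign.

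Transcript composition moved with the result. All 8 hosts belong to the shortest of 5 equal bins of transcript length, where the median log2 fold change of all genes was 0.15. By GC content, Gas5, Snhg1, Snhg3 and Snhg6 lie in the lowest of 5 bins (25.6% to 44.0% GC; median 0.36), Snhg5, Snhg8 and Snhg12 in the next (median 0.06) and Snhg15 in the fourth (median -0.33). The highest bin had a median of -0.49. After a correction of each library for GC content and length, Gas5 was at 0.62 (limma adjusted p = 0.323), Snhg3 at 0.69, Snhg5 at 0.88, Snhg8 at 0.54 and Snhg6 at -0.00097, and the host median was 0.39, against 0.08 for all genes. Gas5, Snhg3, Snhg5, Snhg8 and Snhg6 were each nearer to 0 than without the correction, and Gas5, Snhg3, Snhg5 and Snhg8 kept their sign. Snhg15 was at -0.15, also nearer to 0, while Snhg1, at -1.12, and Snhg12, at 0.25, were farther from it. How far composition accounts for the host levels was not tested beyond this correction.

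**Figure D3:**
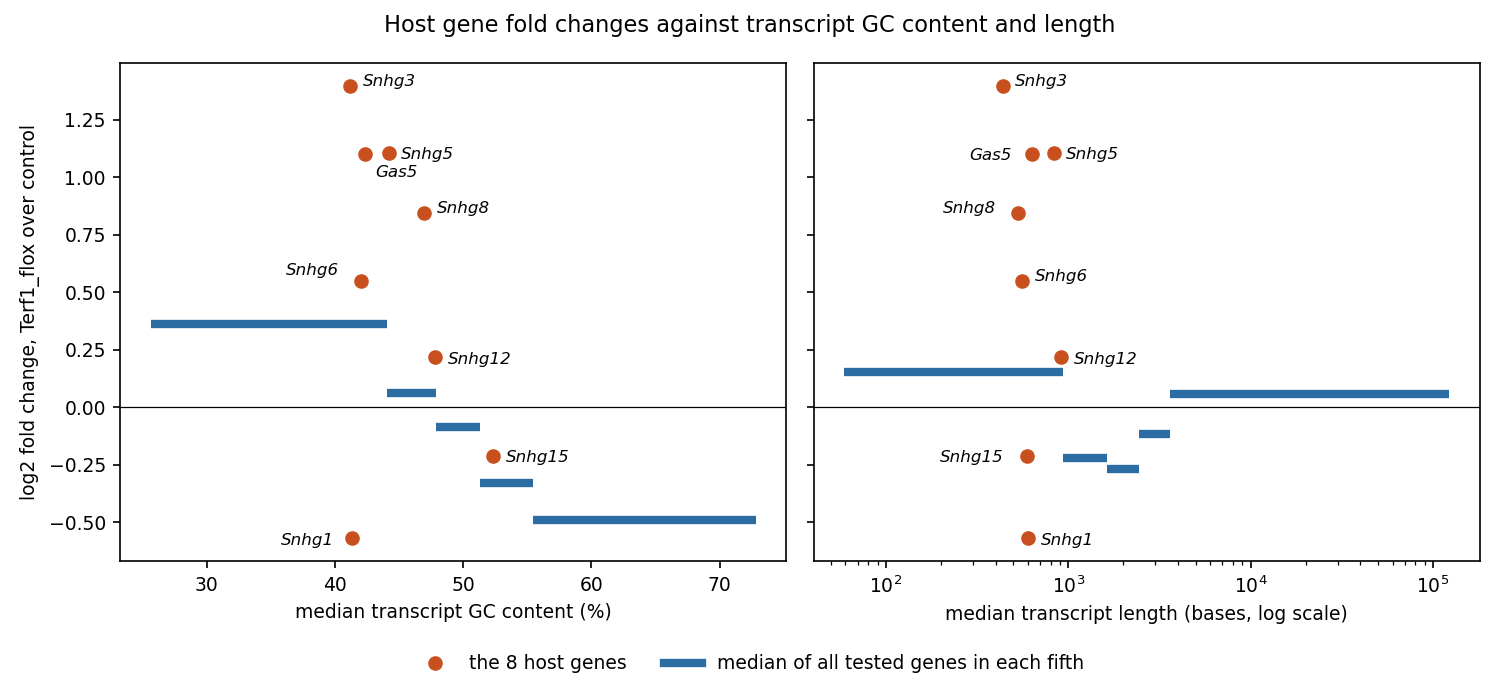
Log2 fold change, Terf1_flox over control (y axis), of the 8 host genes (points) against median transcript GC content in % (left) and length in bases on a log scale (right). Bars give the median of all tested genes in each of 5 equal bins, from 0.36 at low GC content to -0.49 at high GC content.

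Other noncoding hosts were also mostly above 0. Of 11 listed, 10 were tested, 8 were above 0 and the median log2 fold change was 0.94. Of the 10, 5 were higher without overlap (50%, background 10.3%), none was called by limma or edgeR, and DESeq2 called 2 higher (20%, background 2.47%). Snhg20 had 6362, 4897 and 3992 normalized counts in Terf1_flox, against 2105, 1824 and 1526 in control libraries (log2 fold change 1.47 ± 0.25; limma adjusted p = 0.0845, DESeq2 adjusted p = 1.42e-05). Snhg18 had 2523, 2311 and 3222 in Terf1_flox, against 1307, 1360.1 and 1226 in control libraries (1.04 ± 0.24; limma adjusted p = 0.139, DESeq2 adjusted p = 0.00397). For both, the groups were far apart, and correction for GC content and length gave 1.71 for Snhg20 and 1.31 for Snhg18, higher than without it. Snhg4 was at 0.84 ± 0.27 and Snhg9 at 1.41 ± 0.49, neither passing. Of the 10, 2 lay below 0, Snhg16 at -3.13 (limma adjusted p = 0.277) and Snhg11 at -0.20 (limma adjusted p = 0.966). With GC content and length corrected, Snhg9, at 1.22, and Snhg16, at -2.89, were nearer to 0 than without the correction. Snhg11, at -0.39, was farther from 0, and Snhg4 had no corrected value.

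**Figure D4:**
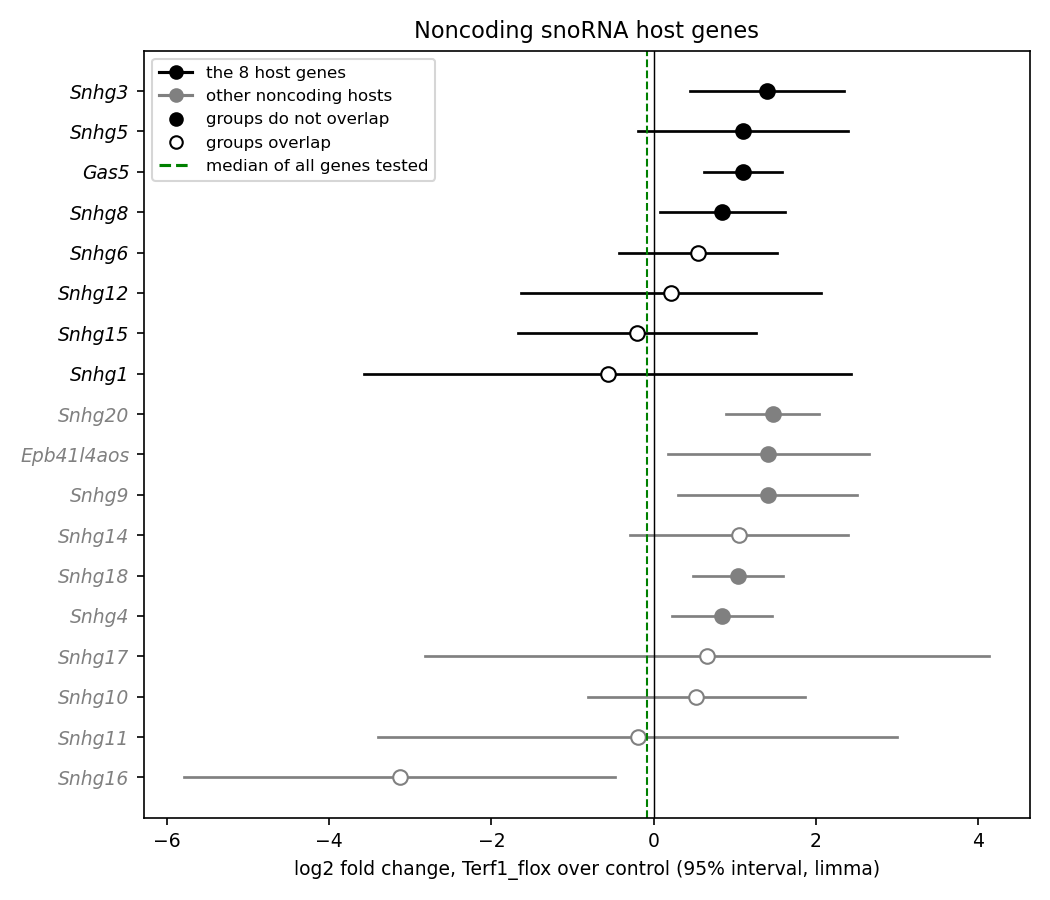
Log2 fold change, Terf1_flox over control (x axis), with 95% intervals from limma for the 8 host genes (black) and 10 other noncoding hosts (grey). Filled points mark genes whose groups do not overlap, which are 4 of the 8 and 5 of the 10, all above 0.

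Protein-coding hosts, which carry snoRNAs in introns of ribosomal protein and other genes, were of both signs. Of 30, 17 had a log2 fold change above 0 and 13 had one below it, and the median was 0.07; limma called 0, and DESeq2 called 1 higher (3.33%, background 2.47%) and 5 lower (16.7%, background 3.34%). At an unadjusted limma p below 0.05, 4 were higher (13.3%, background 5.7%) and 7 lower (23.3%, background 8.43%). Groups did not overlap in 5 that were higher (16.7%, background 10.3%) and 7 that were lower (23.3%, background 10.8%). Rpl3, a large-subunit ribosomal protein, had 1223, 1289 and 1319.7 normalized counts in Terf1_flox, against 2985, 2708 and 3347 in control libraries (-1.23 ± 0.23; limma adjusted p = 0.0926). Rpl17, of the same subunit, was at 0.93 ± 0.24 (limma adjusted p = 0.152) and Nap1l4, a nucleosome assembly protein, at -2.11 ± 0.52 (limma adjusted p = 0.149).

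The proteins that bind the guides were also of both signs. In the box C/D set of 4 the median was -0.50 and 1 was above 0. Nop56, a core scaffold that is itself a host, had 4.35, 18.5 and 105 normalized counts in Terf1_flox, against 732, 243 and 842 in control libraries, groups that did not overlap (-4.58 ± 1.10; limma adjusted p = 0.143, DESeq2 adjusted p = 0.0014). Snu13, which recognises the RNA fold, was at 0.58 ± 0.29, the methyltransferase Fbl at -0.97 ± 0.93 and the scaffold Nop58 at -0.03 ± 0.79, and none of these 3 passed.

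Of the 4 box H/ACA proteins, which also belong to telomerase, 2 had a log2 fold change above 0 and 2 had one below it (median -0.12). Nop10 had 10559, 8117 and 8425 normalized counts in Terf1_flox, against 5353, 4133 and 4561 in control libraries (0.95 ± 0.19; limma adjusted p = 0.115, DESeq2 adjusted p = 0.00193), without overlap. Dkc1, the pseudouridine synthase, had 97.9, 30.8 and 307 in Terf1_flox, against 334, 427 and 346 in control libraries, also without overlap but lower (-1.90 ± 0.80; limma adjusted p = 0.336). Gar1 was at -0.34 ± 1.13 and Nhp2 at 0.10 ± 0.42, and both overlapped between groups.

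Among 14 assembly and processing factors 4 lay above 0 and 10 below it (median -0.57), and limma and DESeq2 called 0. At an unadjusted limma p below 0.05, 1 was higher (7.14%, background 5.7%) and 1 lower (7.14%, background 8.43%). Naf1, an H/ACA assembly factor, was at 2.20 ± 0.85, Nolc1, the nucleolar phosphoprotein that binds both snoRNP classes, at -1.85 ± 0.79, the ATPase Ruvbl2 at -2.26 ± 1.10 and Znhit6, a box C/D assembly factor, at -0.95 ± 0.53. Among 18 TOP genes other than ribosomal proteins 10 were above 0 and 8 below (median 0.12), limma called 0 and DESeq2 1 lower (5.56%, background 3.34%). At an unadjusted limma p below 0.05, 0 were higher and 2 lower (11.1%, background 8.43%). Groups did not overlap in 3 that were higher (16.7%, background 10.3%) and 2 that were lower (11.1%, background 10.8%). The elongation factors Eef2 and Eef1g were at -1.19 ± 0.33 and -0.83 ± 0.28, the nucleolar Npm1 at 0.50 ± 0.22 and the poly(A)-binding Pabpc1 at 0.59 ± 0.32. The TOP list thus held values of both signs.

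Nonsense-mediated decay factors are the machinery that removes translated host RNA. Of 10, 4 were above 0 and 6 below (median -0.21), with 0 called by limma, edgeR and DESeq2. At an unadjusted limma p below 0.05, 1 was higher (10%, background 5.7%) and 1 lower (10%, background 8.43%). Upf3a was at -1.41 ± 0.58, the kinase Smg1 at 0.74 ± 0.31 and Smg8 at -3.58 ± 1.73. Of 8 listed genes of the glucocorticoid receptor and its targets, 7 were tested, 3 were above 0 and 4 below (median -0.10), and limma, edgeR and DESeq2 called 0, with 0 at an unadjusted limma p below 0.05. The receptor Nr3c1 was at 0.86 ± 0.61 and its targets Tsc22d3, Per1 and Dusp1 at -1.85 ± 0.91, -1.70 ± 1.20 and -0.81 ± 0.69.

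**Figure D5:**
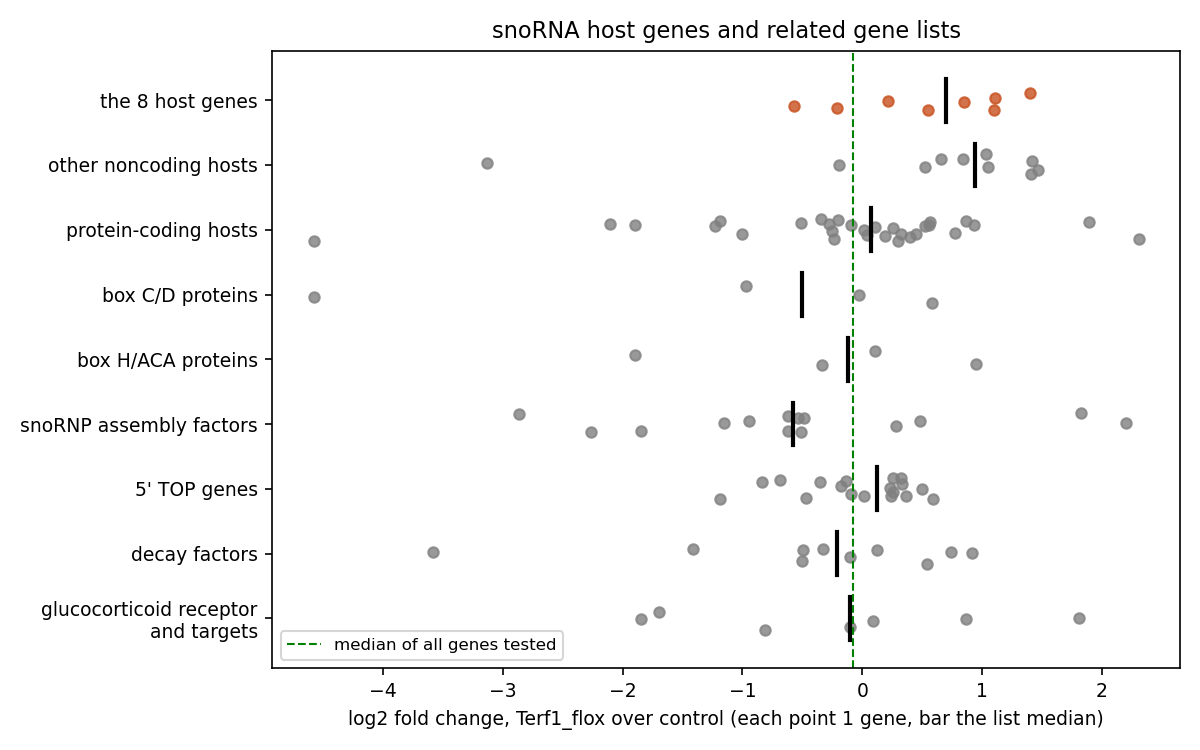
Log2 fold change, Terf1_flox over control (x axis), of each tested gene (points) in the 8 host genes and 8 related lists, with a bar at each list median and a dashed line at the median of all genes. The noncoding host medians of 0.70 and 0.94 lie right of the line, and the other list medians lie between -0.57 and 0.12.

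Start-site sequences were read from RefSeq promoters (GRCm38.p6), which held 7 of the 8 hosts, with 2 starts for Gas5 and none for Snhg6. The 80 bases below, 45 before and 35 from each start, are shown because the TOP start and a TATA element are features by which hosts can be compared. They cover Gas5 at chr1:161035121-161035200 (plus strand), Snhg1 at chr19:8723442-8723521 (plus strand), Snhg5 at chr9:88522863-88522942 (minus strand), Snhg8 at chr3:123508302-123508381 (minus strand), Snhg12 at chr4:132308633-132308712 (plus strand), Snhg3 at chr4:132353652-132353731 (minus strand) and Snhg15 at chr11:6528726-6528805 (minus strand). For Gas5 the downstream of its 2 starts is given. Capitals mark the letters TATA within -40 to -16 and the longest run of at least 6 C or T that overlaps -10 to 20.
Gas5: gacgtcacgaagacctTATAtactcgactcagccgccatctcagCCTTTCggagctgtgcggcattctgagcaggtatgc
Snhg1: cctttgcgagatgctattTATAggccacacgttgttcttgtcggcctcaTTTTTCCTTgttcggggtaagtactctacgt
Snhg5: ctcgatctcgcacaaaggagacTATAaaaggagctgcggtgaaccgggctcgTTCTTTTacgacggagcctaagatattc
Snhg8: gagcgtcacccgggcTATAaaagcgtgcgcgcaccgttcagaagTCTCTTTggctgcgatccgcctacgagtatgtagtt
Snhg12: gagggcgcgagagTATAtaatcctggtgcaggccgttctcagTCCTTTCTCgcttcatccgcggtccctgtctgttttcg
Snhg3: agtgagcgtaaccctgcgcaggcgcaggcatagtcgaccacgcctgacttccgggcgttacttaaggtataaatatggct
Snhg15: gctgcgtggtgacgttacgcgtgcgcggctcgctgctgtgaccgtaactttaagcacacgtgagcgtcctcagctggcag
TATA was found in that window in 5 of the 8 promoters of these 7 hosts (62.5%), against 5.91% of 32851 RefSeq mouse promoters and 1 of 10 promoters of the other noncoding hosts. A pyrimidine run was found in 5 of 8 (62.5%), against 36.9% of all promoters and 7 of 10 of the other hosts; the same run on the opposite strand was in 12.5% of host promoters and 41.3% of all. The letters TATA read the same on both strands. The 5 promoters with both features were those of Gas5, Snhg1, Snhg5, Snhg8 and Snhg12, of which 3 are hosts without overlap between the groups and 2 are not. Snhg3, with the highest fold change of the 8, had neither feature in these windows around its annotated start. The letters TATA do occur in its printed stretch, downstream of that start and so outside the window. Whether the annotated start is the one used in these cells was not tested.

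Some hosts share a start region with a gene on the opposite strand. The start of Slc3a2, which encodes the heavy chain of amino acid transporters, lies 106 bases from that of Snhg1. Slc3a2 had 419.9, 426 and 788 normalized counts in Terf1_flox, against 1624, 1749.9 and 1682 in control libraries. The groups did not overlap, and the difference was -1.69 ± 0.34 on the log2 scale (adjusted p = 0.108 in limma and 0.00081 in DESeq2), or -1.47 once GC content and length were corrected for. Terf1_flox replicate 2, in which Snhg1 was near 0, did not stand apart in Slc3a2. Zbtb37, a zinc finger gene whose start is 427 bases from that of Gas5 and which overlaps it by 428 bases on the opposite strand, had 27.2, 78.0 and 248 in Terf1_flox, against 123, 153 and 65.5 in control libraries. The groups overlapped (-0.40 ± 0.91; limma adjusted p = 0.877), and without strand its reads and those of Gas5 cannot be told apart where the 2 genes overlap.

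By correlation with the mean centred log2 profile of the 8 hosts over the 6 libraries, the genes most like them were Kcnab3os (r = 0.997), Rsad2 (0.989), Zfp169 (0.988), Kynu (0.987) and Lonrf1 (0.985). The host profile was 0.49, -0.12 and 0.47 in Terf1_flox and -0.31, -0.29 and -0.23 in control libraries. All 5 genes share its dip in Terf1_flox replicate 2, as in Kynu with 53.3, 4.11 and 109.3 normalized counts in Terf1_flox and 0.88, 1.91 and 2.37 in control libraries. That is the library in which Snhg1 had 9 reads, and without Snhg1 the host profile did not dip there, with 0.31, 0.40 and 0.36 in Terf1_flox and -0.40, -0.33 and -0.34 in control libraries. The same 5 genes then correlated with it at 0.72 to 0.77.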

How the data were processed

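Polyadenylated RNA of sorted kidney epithelial cells was made into libraries with a low-input kit, per the labels. The authors deposited 1 table for 16095 genes, whose unit is a signal: read counts divided by a factor per library, with no scaling by gene length. DESeq2 and GRCm39 are named in the submitters' processing notes; the sources used here do not give the aligner, counter, strand setting or gene filter. In each library 100% of values were whole multiples of 1 step (within 0.01 of a read), so whole reads were recovered. No molecular identifiers were available, so statements on depth cover counting error only.

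The main test was limma 3.58.1 (R 4.3.3) with its mean-variance trend, fitted to log2 values after adding 1 to the normalized counts. It was run two-sided on 14822 genes (mean of 10 or more over all libraries), with Benjamini-Hochberg adjustment and a threshold of 0.05. Adding 1 pulls the fold changes of low genes toward 0. Kynu, low in control and uneven between Terf1_flox libraries, was at 3.57 in limma and 5.03 in DESeq2. How much of that difference came from the added 1 was not tested. For some genes uneven between libraries the limma value was the larger in size, as in Nop56, at -4.58 in limma and -3.80 in DESeq2. Values after ± are SE for fold changes and SD for group means. Alternatives were edgeR 4.0.16 and DESeq2 1.42.0 on the recovered reads (0 and 772 genes called), other scalings, filters and pseudocounts, leaving out each library, a replicate block and a correction for transcript GC content and length by natural splines (5 degrees of freedom each; 98.7% of genes had both, from GENCODE release 21). DESeq2 gave an adjusted p for 13278 genes. The scripts were tested on simulated data. DESeq2 without a filter and the host median and profile without Snhg1 were added after seeing the values.

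The 8 host genes and all lists were chosen with earlier results of these data known. Named were the 8 hosts, Terf1, the 4 genes of smallest limma p in each related list (all of the box C/D and H/ACA proteins), opposite-strand neighbours within 1 kb of a host's start, and the 5 genes most correlated with the host profile, predicted genes left out; 1 gene that this rule names is not reported here, and Snhg11, Snhg16, Rcc1, Gm17300, Epcam, Eif2s3y and Xist were named after their values were seen. Replicate numbers were not used to pair libraries. Promoters are from RefSeq (GRCm38.p6) and snoRNAs from GENCODE (GRCm38), and no coordinate was converted to GRCm39.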

Additional observations from a re-analysis of the deposited data

How the results depend on the processing

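The host median stayed above 0 in all alternatives run, from 0.61 to 0.91 when each library was left out, and was 0.85 without Snhg1. Counts of calls depended on tool and filter. Limma called 132 genes with a mean of at least 50 (1 host, Gas5), 45 with equal totals, 10 with equal totals outside mitochondrially encoded genes and 8 after quantile normalization. DESeq2 called 772 genes and 859 without a filter, with 2 hosts in each (Gas5 and Snhg3). Terf1 passed with a mean of at least 50 (-3.99), equal totals (-4.17), DESeq2 (-3.89) and DESeq2 without a filter (-3.91). The cause of these differences was not tested.

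Of 1053 named-gene values, 990 kept direction and side of the threshold, 31 newly passed and 32 changed sign, all of these of genes that did not pass. In edgeR, edgeR without a filter, DESeq2 and DESeq2 without a filter, the log2 fold changes were 0.66, 0.64, 0.65 and 0.63 for Snhg1, 0.25, 0.24, 0.25 and 0.22 for Nop58, 0.34, 0.32, 0.33 and 0.30 for Gar1, and 0.056, 0.047, 0.061 and 0.047 for Zbtb37. Nop58 was 0.091 with equal upper quartiles and 0.077 after quantile normalization, and Nhp2 -0.071 with equal totals. With GC content and length corrected, Gar1 was 0.014 and Snhg6 -0.00097. With 1 library left out, the ranges were -1.57 to 1.19 for Snhg1, -0.33 to 0.98 for Snhg12, -0.49 to 0.11 for Snhg15, -0.75 to 0.68 for Nop58, -1.02 to 0.98 for Gar1, -0.20 to 0.49 for Nhp2 and -1.20 to 0.37 for Zbtb37.

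The labels do not say whether replicate numbers pair the libraries. Deviations of same-numbered libraries correlated at -0.05, 0.0001 and -0.01, and those of differently numbered libraries at -0.03 to 0.04. Correlations near 0 cannot show that the numbers mark no shared day or litter. With a replicate block, 0 genes were called (1884 at an unadjusted p below 0.05), the host median was 0.70 and the adjusted p of Gas5 was 0.242 in limma. The number of libraries limits precision most for Snhg1, Snhg12 and Snhg15, whose counts went down to 9, 39 and 61 reads.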

Other observations

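The table also held 18 rows named as small nucleolar or Cajal body RNAs, examined after the values of their hosts were seen. Most snoRNAs have no poly(A) tail, and of these rows only Snord87 lies in one of the 8 hosts. Snord87 had a mean below 10 and was not tested. It had 29.4, 1.03 and 0 normalized counts in Terf1_flox and 1.76, 14.3 and 11.8 in control libraries, groups that overlapped. Of 12 tested, 11 were above 0 with a median log2 fold change of 1.53 (0.75 after the GC content and length correction), against -0.08 for all genes. Some of the 12 were near the floor, such as Snora21, with 0.88, 0 and 0 normalized counts in control libraries. The groups did not overlap in 5, all higher (41.7%, background 10.3%). Limma called 0, with 3 higher at an unadjusted p below 0.05 (25%, background 5.7%). EdgeR called 0, and DESeq2 called 2 higher (background 2.47%). Both of these have promoters of their own. Snord118, the U8 snoRNA of large-subunit ribosomal RNA maturation, averaged 809 ± 69.9 normalized counts in Terf1_flox and 282 ± 36.3 in control libraries (1.52 ± 0.35; limma adjusted p = 0.134, DESeq2 adjusted p = 0.00381; 0.62 corrected). Snord13 averaged 1447 ± 398 in Terf1_flox and 496 ± 194 in control libraries (1.58 ± 0.40; limma adjusted p = 0.158, DESeq2 adjusted p = 0.00693; 0.83 corrected). How such RNAs entered poly(A) libraries was not tested.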
